A study of Mus musculus with 28 samples.

Results

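The pancreatic lipases, colipase, phospholipase, amylases and ribonuclease are the part of the digestive secretion that splits fat, starch and RNA. Described here are 9 such genes (Pnlip, Pnliprp1, Pnliprp2, Cel, Clps, Pla2g1b, Amy2a5, Amy1 and Rnase1) of 35858 gene symbols in the tables. They were chosen by name, and for each gene the estimated read counts and the TPM values of its transcripts were added up within a sample. TPM (transcript share, scaled to a fixed total in every sample) is a level corrected for transcript length.

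Bulk RNA was sequenced from whole pancreas and liver of mice with a human APOBEC3B cDNA fused to tGFP under a tetracycline-responsive promoter in the ColA1 locus. The 6 A3B pancreases (mice 44, 53, 49, 125, 137 and 153) and 6 A3B livers (mice 44, 137, 49, 125, 48 and 153) came from animals that also carried CAGs-rtTA3, a ubiquitous driver that switches the transgene on under doxycycline. The 2 control pancreases and 2 control livers came from mice 45 and 168. The methods name littermates with the driver alone or the A3B transgene alone as controls, and the labels of these control livers give A3B alone. The mice were young adults, the labels give 10 days of treatment for all of these samples, and doxycycline was given in the food. The methods say that controls were fed doxycycline too, whereas a figure legend calls the controls used for variant calling undosed, so their dosing is not settled here. The study describes a rapid decline in health of dosed A3B mice, the state of the mice sampled here is not given, and an effect of the transgene within the tissue and one of illness of the whole animal cannot be told apart. The genotype field goes against the sample names for 4 pancreases: A3B mice 44 and 137 are listed there as A3B alone, and control mice 45 and 168 as A3B + CAGS-rtTA. The livers of the same 4 mice carry the opposite genotype entries, which fit the sample names. Groups were taken from the sample names. The transcripts counted in these pancreases and livers are those of the mouse, with none for the human transgene, so the names could not be checked against its RNA. Each tissue sample is from 1 animal, and with 2 controls the precision of every comparison rests on that pair.

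Acinar cells make digestive enzymes in bulk, pack them into zymogen granules and release them into the gut. Pancreatic lipase (Pnlip) cuts triglycerides at the surface of fat droplets and needs colipase (Clps) to stay there in the presence of bile salts. Its relatives Pnliprp1 and Pnliprp2 differ from it: Pnliprp1 has little known lipase activity, while Pnliprp2 also cuts galactolipids and phospholipids and matters most in suckling animals. Carboxyl ester lipase (Cel) is activated by bile salts and cuts cholesterol and vitamin esters. Phospholipase A2 group 1B (Pla2g1b) is secreted as a proenzyme and cuts dietary phospholipids. Amylase cuts starch: Amy2a5 is one of the pancreatic copies, and Amy1 is the copy of salivary gland and liver. Rnase1 is the pancreatic ribonuclease. In bulk tissue, fewer acinar cells and less RNA in each acinar cell cannot be told apart.

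The genes lie partly in clusters (GRCm38, mm10). Pnlip (chr19:58652498-58681788), Pnliprp1 (chr19:58728887-58744169) and Pnliprp2 (chr19:58759719-58777534) stand side by side on the plus strand within 125 kb. The amylase copies stand on the minus strand of chromosome 3 within 459 kb, from Amy2b (chr3:113147656-113156727, annotated as an unprocessed pseudogene) past Amy2a5 (chr3:113247178-113258837) and Amy2a4, Amy2a3, Amy2a2 and Amy2a1 to Amy1 (chr3:113555710-113606699). Cel (chr2:28555795-28563403), Clps (chr17:28558149-28560766), Pla2g1b (chr5:115466262-115474722) and Rnase1 (chr14:51144998-51146785) lie apart. The transcripts of Amy2a2, Amy2a3 and Amy2a4 are identical over 3717 bases, that of Amy2a5 is 98.360% identical to them, and that of Amy1 is 88.806% identical over 1599 aligned bases. Reads that fit several Amy2 copies are divided among them by the quantification, so the split between copies is uncertain and values summed over the Amy2 copies are given beside those of Amy2a5 where the results turn on them.

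RefSeq promoter windows (GRCm38.p6) existed for 8 of the 9 genes, Clps having no entry. The 150 bases upstream of the start are shown for the lipase pair that came to differ most in ratio, Pnlip and Pnliprp1, and for the amylase pair, Amy2a5 and Amy1, the latter at both of its starts. Capitals mark the letters searched on both strands in the 250 bases upstream of the start. They were TATAAA, the letters of the core promoter box that places the start, and CACCTG, an E-box of the kind that PTF1 binds. The others were TTCCCA, the core bound by RBPJ proteins, and AAGGTCA, bound by NR5A receptors, and matches of different motifs were allowed to overlap. The windows are Pnlip chr19:58670215-58670364 (plus strand), Pnliprp1 chr19:58728737-58728886 (plus), Amy2a5 chr3:113258700-113258849 (minus), the upstream start of Amy1 chr3:113577751-113577900 (minus) and its downstream start chr3:113574763-113574912 (minus).
Pnlip: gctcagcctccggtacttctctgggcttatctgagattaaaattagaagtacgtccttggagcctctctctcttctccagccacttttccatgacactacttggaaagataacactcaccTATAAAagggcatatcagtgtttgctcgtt
Pnliprp1: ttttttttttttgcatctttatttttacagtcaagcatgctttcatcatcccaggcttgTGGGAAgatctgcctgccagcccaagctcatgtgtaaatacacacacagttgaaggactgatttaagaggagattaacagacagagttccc
Amy2a5: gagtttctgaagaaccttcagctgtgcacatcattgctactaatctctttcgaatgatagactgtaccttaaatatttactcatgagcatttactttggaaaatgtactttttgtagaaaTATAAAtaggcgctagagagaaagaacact
Amy1 upstream start: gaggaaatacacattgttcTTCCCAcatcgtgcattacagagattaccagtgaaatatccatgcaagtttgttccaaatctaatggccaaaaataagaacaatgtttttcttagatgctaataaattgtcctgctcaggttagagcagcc
Amy1 downstream start: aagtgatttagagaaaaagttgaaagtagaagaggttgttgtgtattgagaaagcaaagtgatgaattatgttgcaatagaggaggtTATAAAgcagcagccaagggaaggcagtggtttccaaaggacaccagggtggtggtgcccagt
TATAAA began 30 bases before the start of Pnlip and of Amy2a5 and 63 bases before the downstream start of Amy1, and it was not in the windows of Pnliprp1 or of the upstream Amy1 start. In the windows of 250 bases, TTCCCA was found for Pnlip, Pnliprp1, Cel, Rnase1 and the upstream Amy1 start, and CACCTG for Cel, with 4 matches, and Pnliprp2, with 1. AAGGTCA was found for Cel, and Pla2g1b held none of the letters searched. Of 32851 promoter windows of the same length, 12.4% held TATAAA, 21.6% TTCCCA, 17.2% CACCTG and 4.08% AAGGTCA. A match of letters is a description of the window and shows no binding.

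The estimated counts summed to between 65161064 and 118976013 per library in the 16 pancreas and liver libraries, 2774 of 119414 transcripts matched no gene symbol, and these held between 0.23% and 1.472% of the counts. The pancreas comparison depended strongly on how libraries were scaled. The scaling factors of edgeR's trimmed mean of M-values (TMM), which set the bulk of genes level, were 1.298 to 1.792 in the A3B pancreases, 0.2096 in control 45 and 0.4427 in control 168. Under TMM the median log2 fold change over all genes tested was 0.09, with 3249 genes higher and 2843 lower in A3B. With scaling by library totals it was 2.29, with 13473 genes higher and 210 lower. A level in TPM, or a change under library totals, is therefore a share of all RNA in a sample, and a change under TMM is relative to the typical gene.

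In the pancreas, pancreatic lipase, its colipase, the ester lipase, the phospholipase, pancreatic amylase and the ribonuclease were lower in every A3B sample than in both controls on the TPM scale. The relatives Pnliprp1 and Pnliprp2 overlapped between the groups on that scale, and Amy1 was above both controls in 5 of 6 A3B samples. Under TMM, 8 of the 9 genes were lower in A3B by edgeR's quasi-likelihood F test (Benjamini-Hochberg adjusted p under 0.05), 0 were higher, and Amy1 did not pass. Of all 19123 genes tested, 14.9% were called lower and 17.0% higher. With scaling by library totals 6 of the 9 were called lower against 1.10% of all genes, and 1, Amy1, was called higher against 70.5% of all genes. The non-overlap of TPM values held for 6 of the 9, against 1.07% of all genes, and 0 of the 9 lay above both controls in all A3B samples, against 70.8% of all genes. Control 45 weighs on the size of the TMM falls: without it the log2 fold changes were -7.12 for Pnlip, -6.54 for Amy2a5, -4.32 for Pla2g1b, -4.07 for Clps, -3.32 for Cel and -3.14 for Rnase1, each smaller than in the full fit and still called by edgeR.

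**Figure D1:**
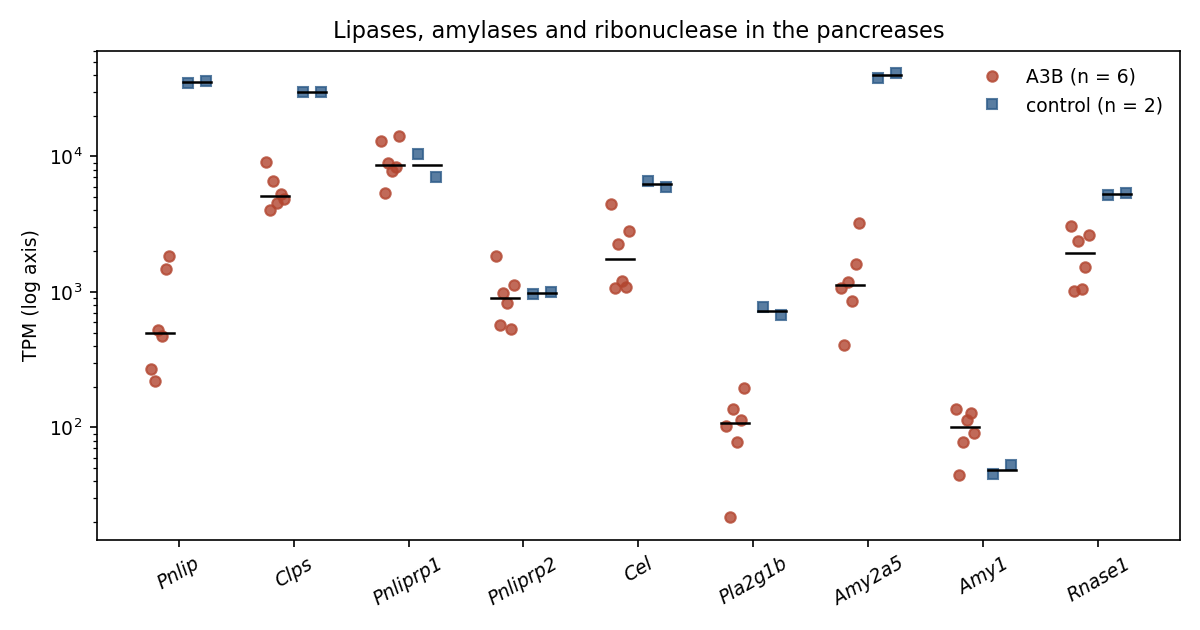
Levels of the 9 genes in each pancreas, in TPM on a log axis, with A3B samples as circles (n = 6), control samples as squares (n = 2) and the group medians as black lines. The A3B circles of Pnlip, Clps, Cel, Pla2g1b, Amy2a5 and Rnase1 all lie below their control squares, while those of Pnliprp1, Pnliprp2 and Amy1 overlap them.

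Pnlip had 218.5 TPM in the lowest A3B pancreas, a median of 499.2 and 1857 in the highest, against 35134 in control 45 and 36336 in control 168. The highest A3B sample, mouse 153, stood far below both controls, and among the A3B samples mice 137 and 153 stood above the others. Mice 44 and 137, whose genotype entries go against their names, had 271.5 and 1478 TPM. The log2 fold change was -7.83 (SE 0.901, edgeR TMM, adjusted p = 0.000308), and -5.48 (adjusted p = 0.000129 by edgeR) under library totals.

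Clps, the cofactor of Pnlip, had 4016 TPM in the lowest A3B pancreas, a median of 5099 and 9033 in the highest, against 30150 and 29927 in controls 45 and 168. The groups did not overlap, and the distance between them was smaller than for the lipase it serves. Its log2 fold change was -4.82 (SE 0.468, edgeR TMM, adjusted p = 0.000169), and -2.44 under library totals (adjusted p = 8.1e-05 by edgeR).

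Pnliprp1 had between 5377 and 14044 TPM in the A3B pancreases (median 8689), and 10379 and 7036 TPM in controls 45 and 168. The groups overlapped, both controls lying inside the A3B range. Relative to the typical gene it was lower, with a log2 fold change of -2.29 (SE 0.541, edgeR TMM, adjusted p = 0.00965), but the direction flipped to 0.17 under library totals (adjusted p = 0.707 by edgeR), where the median gene moved by 2.29. Without control 45 the TMM value was -1.16 and was not called (adjusted p = 0.176 by edgeR), and without control 168 it was -2.89.

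Pnliprp2, which also acts on galactolipids, had 529.0 to 1851 TPM in the A3B pancreases (median 900.7) against 963.2 and 1005 in the controls. Here too both controls lay inside the A3B range. The TMM log2 fold change was -2.39 (SE 0.494, adjusted p = 0.00498 by edgeR), that under library totals was -0.03 (adjusted p = 0.95), and without control 45 the TMM value of -1.69 was not called (adjusted p = 0.0632).

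Cel had 1067 TPM in the lowest A3B pancreas, a median of 1740 and 4478 in the highest, against 6546 and 5916 in the controls. Mouse 44 held the highest value and still lay below both controls. The log2 fold change was -4.21 (SE 0.617, edgeR TMM, adjusted p = 0.000906) and -1.81 under library totals (adjusted p = 0.00696). Transcripts annotated as noncoding held 21.9% to 34.2% of its TPM in the A3B pancreases and 9.03% and 13.6% in controls 45 and 168 (exact permutation test, two-sided p = 0.0357, the smallest that 6 against 2 samples allow). The share was likewise above both controls in all A3B samples for 9.92% of 6150 genes with both kinds of transcript and at least 1 TPM in every pancreas. Of the other members with both kinds, Amy2a5 also lay above (exact p = 0.25), and Pnlip and Pla2g1b overlapped. Pnliprp1 (0.929% to 5.49% against 9.78% and 6.65%) and Amy1 lay below both controls (exact p = 0.0357 each), as 27.3% of those genes did.

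Pla2g1b, the least abundant of the lipid enzymes, had 21.7 TPM in the lowest A3B pancreas (mouse 53), a median of 108.3 and 196.8 in the highest, against 771.9 and 675.2 in the controls. The groups did not overlap. Its log2 fold change was -5.22 (SE 0.633, edgeR TMM, adjusted p = 0.000546) and -2.79 under library totals (adjusted p = 0.000995).

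Rnase1, which cuts dietary RNA, had 1021 to 3090 TPM in the A3B pancreases (median 1949) and 5153 and 5415 in the controls. It had the smallest fall under library totals of the 6 genes whose groups did not overlap, at -1.47 on the log2 scale (adjusted p = 0.00743 by edgeR), and the TMM value was -3.84 (SE 0.501, adjusted p = 0.00051).

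Amy2a5, a pancreatic amylase copy, was the most abundant of the 9 in the controls, at 37843 and 41312 TPM in mice 45 and 168, and had 407.1 TPM in the lowest A3B pancreas, a median of 1128 and 3216 in the highest. The groups did not overlap. Its log2 fold change was -7.20 (SE 0.786, edgeR TMM, adjusted p = 0.000258) and -4.85 under library totals (adjusted p = 6.25e-05). Amy2a2, Amy2a3 and Amy2a4, which have the same transcript and so the same value, fell less, from 22061 and 21718 TPM in the controls to between 855.6 and 3887 in A3B, a TMM log2 fold change of -5.57 (SE 0.643, adjusted p = 0.000308 by edgeR) that was -4.81 without control 45. Amy2b, annotated as a pseudogene, went from 252.4 and 2183 TPM in controls 45 and 168 to 40.2 to 182.8 in A3B (TMM log2 fold change -5.22, SE 0.544, adjusted p = 0.000209 by edgeR), and its fold change was -5.87 without control 45 and -3.96 without control 168. Amy2a1 ran the other way, with 0.0 and 0.243 TPM in the controls and 0.670 to 5298 TPM in the A3B pancreases. Its 890-base transcript is 99.888% identical to that of Amy2a2, and it was called higher in A3B (adjusted p = 0.0281 by edgeR), with no fold given since the controls are at or near 0. Without control 45, without control 168, without A3B mouse 49 or with no filter on low counts it was not called (adjusted p = 0.162, 0.129, 0.0502 and 0.0606 by edgeR), though its direction stayed the same. Added up, the Amy2 copies stood at 4731 to 14987 TPM in A3B (median 11950) against 104280 and 108650 TPM in the controls, with no overlap. Their summed counts had a TMM log2 fold change of -5.90 (SE 0.698, adjusted p = 0.000337 by edgeR), a smaller fall than that of Amy2a5 alone.

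Amy1, the salivary and liver amylase, was the scarcest of the 9 in the controls, with 45.0 TPM in control 45 and 52.4 in control 168. The A3B pancreases held 44.3 TPM (mouse 53), a median of 101.6 and 136.3 (mouse 44), so that 5 of 6 lay above both controls and the groups overlapped through mouse 53. Its direction depended on the scaling: the log2 fold change was -0.95 under TMM (SE 0.461, adjusted p = 0.14 by edgeR) and 1.34 under library totals (adjusted p = 0.0179), below the shift of 2.29 of the median gene. Of its TPM, the transcript from the downstream start held 51.3% and 61.7% in the controls and 65.4% to 91.7% in the A3B pancreases, and transcripts annotated as noncoding held 46.4% and 36.1% in the controls against 7.06% to 33.1% in A3B, a non-overlap in the direction that 27.3% of the same 6150 genes showed. In 7 of 8 livers that downstream transcript held 93.9% to 97.5%, and in A3B liver 48 it held 53.0%.

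**Figure D2:**
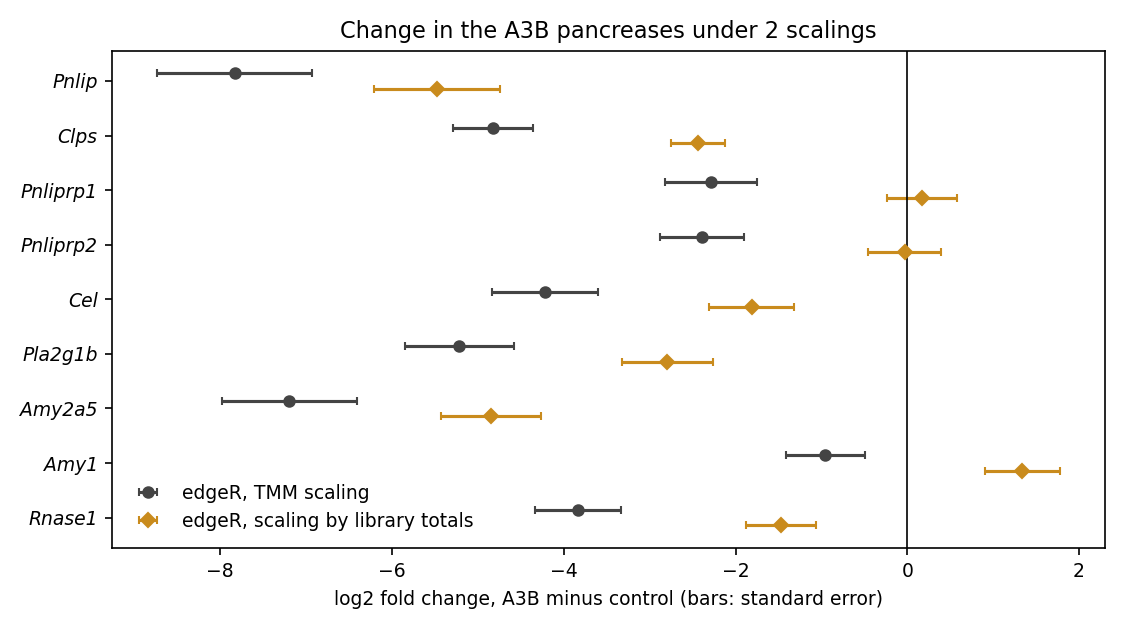
Log2 fold change of each gene in the A3B against the control pancreases from edgeR (points, with bars for the standard error), scaled by TMM (circles) and by library totals (diamonds). Every gene moves up by more than 2 log2 units between the scalings, which takes Pnliprp1 from -2.29 to 0.17 and Amy1 from -0.95 to 1.34, while the order of the genes is the same under both.

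The ratio of one enzyme to another within a sample does not depend on the scaling between samples, so the 36 pairs of the 9 genes were compared as log2 TPM ratios by a two-sided exact permutation test over the 28 ways to choose 2 controls from 8 pancreases. The smallest p this allows is 0.0357, and p-values were not adjusted over the pairs. In 30 of the 36 pairs the 2 groups did not overlap, 26 of them at the smallest p. Non-overlap was common among all genes too, at 42.8% of all pairs of tested genes and 56.5% of pairs of genes with a mean of 10 TPM or more.

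Neighbours on chromosome 19 parted widely. The ratio of Pnlip to Pnliprp1 was 0.0208 in the lowest A3B pancreas, 0.0598 at the median and 0.176 in the highest, against 3.39 and 5.16 in controls 45 and 168. Lipase thus went from the more abundant to the less abundant of the pair in 6 of 6 A3B samples, a log2 difference of -6.02 (exact permutation p = 0.0357). Pnlip over Pnliprp2 showed the same separation, at 0.147 to 2.79 in A3B against 36.5 and 36.1, a log2 difference of -5.79 (exact p = 0.0357). The groups overlapped for the 2 relatives themselves: Pnliprp1 over Pnliprp2 was 7.04 to 15.9 in A3B and 10.8 and 7.0 in the controls, a log2 difference of 0.23 that the exact test did not separate (p = 0.5), with SDs of 0.407 in A3B (n = 6) and 0.440 in controls (n = 2).

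Lipase and colipase, which work as a pair, were near 1 to 1 in the controls, at 1.17 and 1.21 TPM of Pnlip for each TPM of Clps. In the A3B pancreases the ratio was 0.0301 to 0.380 with a median of 0.0922, so colipase exceeded lipase in 6 of 6 (log2 difference -3.48, exact p = 0.0357). The groups overlapped for Pnlip over Amy2a5, which was 0.255 to 0.918 in A3B and 0.928 and 0.880 in the controls (log2 difference -0.83, exact p = 0.179). With all Amy2 copies summed, amylase over Pnlip was 8.07 to 52.3 in A3B against 2.97 and 2.99 in the controls (exact p = 0.0357), so the test separated the groups for the sum of the copies but not for Amy2a5 alone.

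Summed amylase over Pnliprp1 was 0.880 to 1.56 in A3B and 10.0 and 15.4 in the controls (exact p = 0.0357). Amy2a5 over Amy1 went from 841 and 788 in the controls to between 7.67 and 35.5 in A3B (log2 difference -6.03, exact p = 0.0357). For the sum of the Amy2 copies over Amy1 the change was smaller, from 2320 and 2070 in the controls to between 95.7 and 166 in A3B (exact p = 0.0357). The sum over Pla2g1b overlapped between the groups, at 60.2 to 218 in A3B against 135 and 161 (exact p = 0.536), and over Clps it was 1.18 to 3.07 against 3.46 and 3.63 (exact p = 0.0714), where Amy2a5 alone gave no overlap and the smallest p against either. Other pairs whose groups overlapped were Cel over Rnase1, at 0.708 to 1.45 in A3B and 1.27 and 1.09 in the controls (log2 difference -0.18, exact p = 0.5), Clps over Pla2g1b (log2 difference 0.56, p = 0.429), Cel over Clps (0.70, p = 0.143) and Pnliprp1 over Amy1 (-0.83, p = 0.107). A further 4 pairs did not overlap but had an exact p of 0.0714: Pnliprp2 over Amy1 (log2 difference -1.06), Cel over Pla2g1b (1.25), Clps over Rnase1 (-0.88) and Pla2g1b over Rnase1 (-1.43). With 2 controls these values do not show that the pairs are alike.

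**Figure D3:**
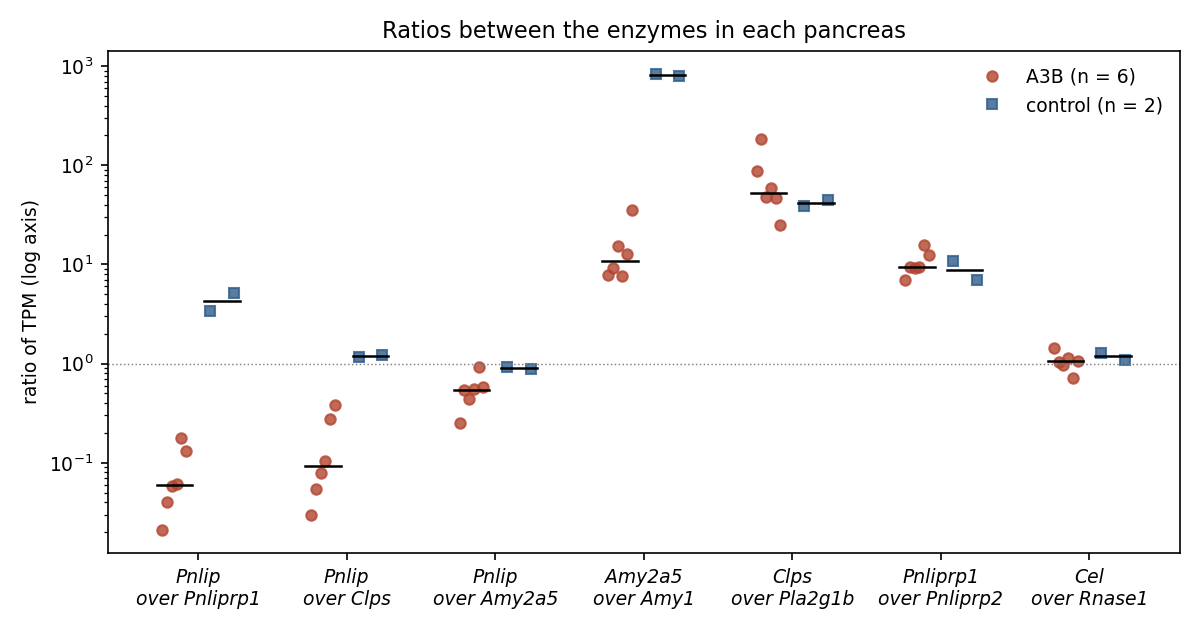
Ratio of TPM between 7 pairs of enzymes in each pancreas on a log axis, with A3B samples as circles (n = 6), controls as squares (n = 2), medians as black lines and equal levels as a dotted line. Pnlip falls below Pnliprp1 and Clps in all A3B samples, Amy2a5 over Amy1 drops from 841 and 788 to at most 35.5, and Pnliprp1 over Pnliprp2 and Cel over Rnase1 overlap between the groups.

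The order of the levels changed with it. In both controls it ran Amy2a5, Pnlip, Clps, Pnliprp1, Cel, Rnase1, Pnliprp2, Pla2g1b and Amy1, and no neighbours in that order overlapped between the 2 samples. By A3B means it ran Pnliprp1, Clps, Cel, Rnase1, Amy2a5, Pnliprp2, Pnlip, Pla2g1b and Amy1. The place of amylase rests on the copy: the Amy2 copies together had a mean of 11013 TPM in A3B, above the 9600 TPM of Pnliprp1. Within the A3B samples that sum was 0.880 to 1.56 times Pnliprp1, so which was higher differed between samples. Amy2a1, whose split from Amy2a2 is uncertain, gave 2348 TPM of the mean, and without it the mean is below that of Pnliprp1. Of the neighbours in the A3B order, Pnlip and Pla2g1b alone did not overlap in their ranges. Still, Pnliprp1 exceeded Clps and Clps exceeded Cel in 6 of 6 samples.

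Together the 9 genes held 12.7% and 12.8% of all TPM in the control pancreases and 1.28% to 3.33% in A3B (mean 2.30% ± 0.796, SD, n = 6). With the other amylase copies included, these shares were 19.4% and 19.6% in the controls and 1.72% to 4.65% in A3B. Within the 9, Pnliprp1 made up 5.51% to 8.17% of the TPM in controls and 38.9% to 45.9% in A3B, whereas Pnlip went from 27.7% to 28.5% down to 0.821% to 7.31% and Amy2a5 from 29.8% to 32.4% down to 3.19% to 10.4%. Clps held a like part in both, 23.4% to 23.7% in controls and 15.8% to 31.5% in A3B. The mean profile of the 9 over the 8 pancreases was followed most closely by Rnase1, with an SD of 0.379 for its log2 distance from that mean, then Clps (0.444) and Cel (0.509), and least by Pnlip (1.97).

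**Figure D4:**
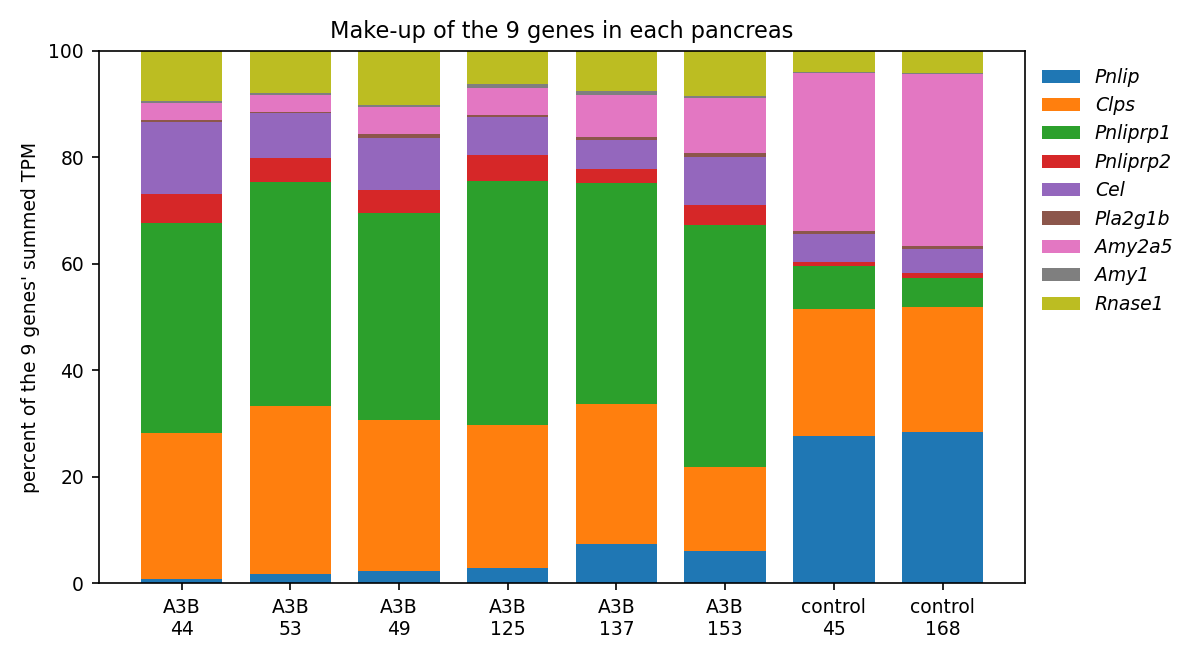
Share of each of the 9 genes in their summed TPM (percent, stacked to 100) for each pancreas. Pnlip, Clps and Amy2a5 fill most of the control bars, and Pnliprp1 is the largest block in each of the 6 A3B bars.

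Genes that ran most like the mean of the 9 over the 8 pancreases were sought among 6617 others with a mean of at least 10 TPM, by the SD of the log2 difference. Among the closest were Sycn (0.292), a zymogen granule protein, and Tmed11 (0.317), of a family of secretory trafficking proteins. Others were Cpb1 (0.390), a secreted carboxypeptidase, and Slc39a5 (0.435), a zinc transporter. Sycn had 782.8 to 2451 TPM in A3B and 5618 and 6450 in the controls.

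Other gene groups in the same pancreases show how far the pattern reached. Of 26 other secreted acinar proteins, most of them proteases, 20 were lower, 0 higher and 6 not called under TMM (median log2 fold change -3.49, against 0.09 for all genes), where 14.9% of all genes were called lower and 17.0% higher. Under library totals 16 were lower and 3 higher, against 1.10% and 70.5% of all genes. The elastase Cela2a, for example, had 5127 to 12939 TPM in A3B against 78195 and 84878. Of 10 acinar transcription factors, 4 were lower, 1 higher and 5 not called under TMM (median -0.17), against the same 14.9% and 17.0%, but 0 were lower and 8 higher under library totals, against 1.10% and 70.5%. Rbpjl, a PTF1 subunit, was lower by TMM (log2 fold change -3.68, SE 0.927, adjusted p = 0.0173 by edgeR) with 5.24 to 101.0 TPM in A3B and 90.0 and 87.6 in the controls, so its ranges overlapped. Bhlha15, which drives secretory cell maturation, was lower by -3.21 (SE 0.572, adjusted p = 0.00333), and Ptf1a by -1.19 (SE 0.284, adjusted p = 0.00988), the latter flipping to 1.10 under library totals.

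Lipid and RNA enzymes outside the acinar lists were counted in the same way, to be read against the 17.0% of all genes called higher and 14.9% called lower under TMM, and the 70.5% and 1.10% under library totals. Of 16 other lipases and lipid hydrolases tested, 5 were higher, 1 lower and 10 not called under TMM (median log2 fold change 0.32), and 13 were higher and 0 lower under library totals. Among them Pla1a, a phosphatidylserine phospholipase, had 50.5 to 93.2 TPM in A3B against 1.02 and 3.36 in the controls (log2 fold change 2.94, SE 0.304, adjusted p = 0.000202 by edgeR), and Lipa, the lysosomal acid lipase, was higher by 1.86 (SE 0.488, adjusted p = 0.0168). Of 15 other phospholipases A2, 3 were higher, 4 lower and 8 not called (median -0.59), and 8 were higher and 1 lower under library totals (median 1.36). Pla2g7, the secreted platelet-activating factor hydrolase, rose by 4.06 (SE 0.792, adjusted p = 0.005) and Pla2g15, a lysosomal enzyme, by 2.03 (SE 0.274, adjusted p = 0.000602). Pla2g16 was lower (-1.20, SE 0.188, adjusted p = 0.0013 by edgeR) and flipped to 1.02 under library totals. Pla2g10 was lower too (-6.05, SE 1.18, adjusted p = 0.0051 by edgeR), with 0.0 and 5.96 TPM in controls 45 and 168 and at most 0.321 in A3B. Of 12 other secreted ribonucleases, 2 were lower under TMM, 0 higher and 10 not called (median 0.16), and under library totals 6 were higher and 0 lower. The lower ones were Rnase4 (-1.09, SE 0.269, adjusted p = 0.0116) and Ang (-0.95, SE 0.327, adjusted p = 0.0483), and both flipped to 1.11 and 1.39 under library totals.

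Markers of other cells moved beside these results. The summed TPM of 18 leukocyte markers was 1254 to 3785 in A3B against 45.7 and 637.4 in controls 45 and 168, that of 14 stroma and adipocyte markers 1340 to 3002 against 114.5 and 881.0, and that of 16 islet markers 3782 to 13339 against 3444 and 3525. Under TMM, 6 of 18 leukocyte, 7 of 14 stromal and 4 of 12 duct markers were higher, 0, 0 and 1 were lower, and of 16 islet markers 5 were lower and 0 higher, where 17.0% of all genes were called higher and 14.9% lower. The median log2 fold changes of the leukocyte, stromal, duct and islet lists were -0.70, 0.72, 0.28 and -1.02, against 0.09 for all genes. Under library totals 7 of 18 leukocyte, 9 of 14 stromal, 10 of 12 duct and 8 of 16 islet markers were higher and 1 duct marker was lower, where 70.5% of all genes were called higher and 1.10% lower. Of 12 hepatocyte markers 0 were called under TMM and 4 were higher under library totals. The 12 duct markers summed to 1971 to 4487 TPM in A3B against 9434 and 8438, most of the latter being Tff2, at 9324 and 8277 TPM in the controls and 165.5 to 3133 in A3B. The 12 hepatocyte markers summed to 145.6 to 1371 TPM in A3B against 114.8 and 51.6. A marker was at 0 in a pancreas library in 2 instances over these lists, 1 leukocyte marker in A3B mouse 137 and 1 hepatocyte marker in control 168. Control 168 held more leukocyte and stromal marker RNA than control 45. The part of these cells in the levels above was not tested.

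In the liver the secreted acinar genes served as background. Clps and Rnase1 were at 0 in 5 of 8 livers, where a count of 0 allows up to 3 counts, or 0.0286 to 0.046 CPM (counts scaled by the library total). The other 3 livers, from A3B mice 44 and 153 and control 45, held them at low levels: Pnlip was at 9.70, 5.33 and 4.37 TPM and Clps at 15.2, 14.1 and 6.67 TPM, next to 499.2 and 5099 TPM at the median of the A3B pancreases. Pnliprp1 was at 16.1 TPM in A3B liver 44, 31.2 in A3B liver 153 and 1.62 in control 45. In A3B livers 44 and 153 Pnliprp1 thus exceeded Pnlip, and in control liver 45 Pnlip exceeded Pnliprp1, the same order as in the pancreases of those mice. The 26 other secreted acinar genes summed to 468.0, 904.3 and 143.7 TPM in these 3 livers, to 148.3 and 157.3 in A3B livers 137 and 125, and to 33.4 to 101.5 in the remaining 3, so by that sum control 45 did not stand apart. Where this RNA came from was not tested.

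Amylase differed from this. The Amy2 copies summed to 157.2, 162.2, 0.310, 51.2, 11.1 and 155.6 TPM in the livers of A3B mice 44, 137, 49, 125, 48 and 153, and to 9.49 and 0.0171 in control livers 45 and 168. A3B livers 137 and 125 therefore had reads assigned to Amy2 copies with Pnlip and Clps at 0. These livers also held 432 and 405 TPM of Amy1, whose transcript is close to that of the Amy2 copies, and misassigned reads were not tested. Amy1 itself was the only abundant member in the liver, with 433, 432, 98.1, 405, 256 and 381 TPM in A3B mice 44, 137, 49, 125, 48 and 153 and 183.5 and 153.9 in controls 45 and 168. Of the A3B livers 5 of 6 were above both controls and mouse 49 was below them. The difference was not called (log2 fold change 0.52, SE 0.537, edgeR TMM, adjusted p = 0.594).

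No member was called in the liver: 0 of 9 by edgeR, against 3.66% of 17365 genes tested. At an unadjusted p under 0.05 there were 0 of 9, against 3985 of those genes. By DESeq2 0 of 9 were called, against 2351 of the 17932 genes it gave an adjusted p. All of the 9 passed edgeR's filter on low counts in the liver, most of them through the 3 livers named. Without those livers 3 members were left to test against a lone control liver, so no call is read from that fit. Whether A3B and control differed more in one organ than in the other was tested by a tissue-by-group term in a fit of all 16 libraries. By edgeR 0 of 9 members passed, against 11.9% of 19908 genes. At an unadjusted p under 0.05 there were 2 of 9, against 5744 of those genes. The closest were Pla2g1b (log2 difference -5.39, SE 1.77, adjusted p = 0.0598) and Amy2a5 (-6.87, SE 2.63, adjusted p = 0.0969). DESeq2 called both of these, with no adjusted p for 4 members, against 20.4% of the 18449 genes it gave an adjusted p. Limma on log2(TPM + 1) called these and Pnlip, against 57.7% of 13571 genes, most of them in the opposite direction: 140 of its 7829 calls had the sign of these members. Pla2g1b, Amy2a5 and Pnlip had at most 1.26, 6.49 and 9.70 TPM in any liver. The interaction calls above therefore rest on their fall in the pancreas and are no separate result about the liver. The SE of the liver fold change was 1.74 to 2.85 for all members other than Amy1.

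**Figure D5:**
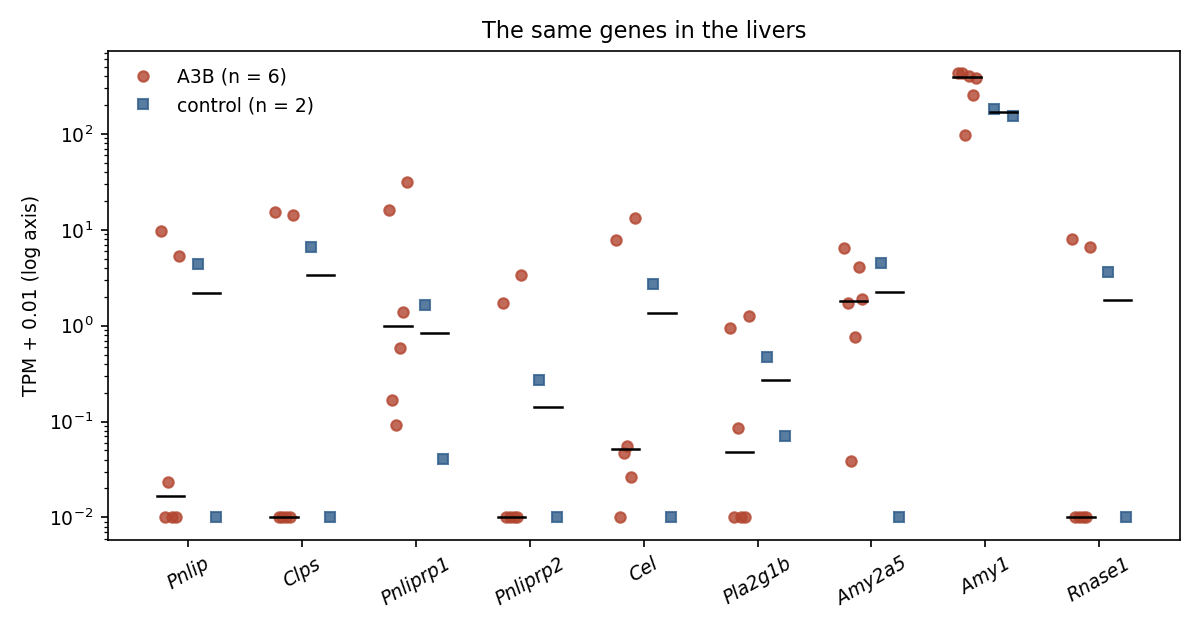
Levels of the 9 genes in each liver on a log axis of TPM + 0.01, with A3B samples as circles (n = 6), controls as squares (n = 2) and medians as black lines. Amy1 stands between 98.1 and 433 TPM in all 8 livers, and the higher points of Pnlip, Clps, Cel and Rnase1 belong to A3B mice 44 and 153 and control mouse 45.

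A further table of the authors, normalized apart from the files above, held TPM for livers of 3 A3B and 3 control mice and lungs of 3 A3B and 3 control mice, and its values are given as a description only. It lists the transgene, hAPOBEC3B, at 1705, 705.0 and 1585 TPM in the A3B livers and 90.6, 281.0 and 114.9 TPM in the A3B lungs, and below 1 TPM in all 6 controls. Amy1 stood at 64.8, 18.5 and 69.4 TPM in the A3B livers of mice 23, 28 and 70 and at 36.6, 35.9 and 35.3 in control livers 11, 91 and 92. The A3B values lay on both sides of the controls, mouse 28 below and the other two above. In lung, Pla2g1b was at 42.8, 54.5 and 37.2 TPM in A3B mice 69, 70 and 74 and at 50.3, 52.6 and 56.0 in control mice 87, 88 and 91, while Rnase1 was at 0.536, 0.889 and 0.46 TPM in A3B and 3.82, 7.63 and 4.75 in controls. Clps was at 0.442, 0.719 and 1.22 TPM in the A3B lungs and 0.152, 0.338 and 0.157 in the control lungs. Treatment times differ here: the labels give 15 days for all 6 controls, 14 days for A3B livers 23 and 28, and 10 days for A3B liver 70 and the A3B lungs. They also give mixed control genotypes, with A3B + CAGS-rtTA for control liver 11, CAGs for control lung 87 and A3B for the others.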

How the data were processed

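RNA from mouse pancreas, liver and lung was sequenced as paired reads on an Illumina HiSeq from stranded libraries. The authors quantified transcripts with kallisto on mm10 (GRCm38), depositing per transcript its estimated count and its TPM in the pancreas and liver files. A table of other livers and lungs, made by the authors from deduplicated genome alignments, holds TPM alone. Transcripts were matched to GENCODE symbols by ID without version, and values were summed per symbol. No column was left unmapped.

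The members, lists and tests were chosen with earlier results of these data known. Summed estimated counts were rounded and tested in R 4.3.3 with edgeR 4.0.16 (filterByExpr, TMM, robust quasi-likelihood F test, Benjamini-Hochberg over all genes, threshold 0.05), in the 8 pancreases, the 8 livers, and all 16 for the interaction. The standard error is the size of the log2 fold change over the root of F. The code was tested on simulated data. Alternatives were library totals, DESeq2 1.42.0, no filter, limma 3.58.1 on log2(TPM + 1), TMM without the acinar genes, summed amylase copies, leaving out each replicate and a replicate block. Chosen after seeing the data were the sum of the Amy2 copies with Amy1 apart, and leaving out 3 livers. Mouse numbers pair liver and pancreas, since they name the same animal. Deviations of same-numbered samples correlated at -0.00477 to 0.28.

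Named genes were the 9 members, the amylase copies, the 4 genes of each list with the smallest adjusted p, and the 5 genes most like the members, of which 1 is not reported here. Counts and the 3-count floor cover counting error only. Sequences are from RefSeq promoter windows.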

Additional observations from a re-analysis of the deposited data

Results flagged for a closer look

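Of 57 groups of samples examined for a sample far from the rest, 2 had one, where chance gives about 1 in 20. In the A3B livers, Amy1 on the log2(TPM + 1) scale had its lowest sample, mouse 49, apart from the others, with a gap of 0.645 of the whole range. In the same liver the 18 leukocyte markers summed to 625.7 TPM, against 32.7 to 247.9 TPM in the other A3B livers, and the 12 hepatocyte markers to 54440 TPM, the lowest of the 8 livers. The part of those cells in the Amy1 level was not tested. In the A3B pancreases, Pnliprp1 over Clps was 2.88 in mouse 153 against 1.34 to 1.71 in the other 5, a gap of 0.679 of the range on the log2 scale.

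The effect of A3B differed between pancreas and liver for Amy2a2, Amy2a3 and Amy2a4, which share a transcript (edgeR interaction, adjusted p = 0.0428 each), and for Amy2b (adjusted p = 0.018). They were lower in the A3B pancreases, while in the liver Amy2a2 ranged from 0.0607 to 27.4 TPM in A3B against 0.00144 and 1.65 TPM in the controls. Neither liver difference was called (adjusted p = 0.346 for Amy2a2 and 0.362 for Amy2b by edgeR). With the mouse as a replicate block, and without the 3 livers that held Clps and Rnase1 RNA, these interactions were not called. Without those livers the only control liver left, that of mouse 168, held 0.4 estimated counts for Amy2a2 and 0 for Amy2b, so the fitted differences are not given.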

How the results depend on the processing

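The 8 members called in the pancreas were all lower, against 14.9% of all genes, and 8 were lower on leaving out any A3B sample. With library totals or limma 6 were lower and 1, Amy1, was higher. Of all genes, 1.10% were lower and 70.5% higher with library totals. With limma 152 were lower and 11401 higher of 13590 genes. The scaling reversed Pnliprp1 to 0.17 (library totals) and 0.094 (limma), and Amy1 to 1.34 and 0.91; the shift of the median gene was 2.29 and 1.75. Genes called in the pancreas numbered 6092, 13683 with totals, 11553 with limma and 3834 to 5817 without a sample. In the liver 636 were called, 1120 with totals, 2351 with DESeq2, 73 to 1593 without a sample and 1 without the 3 livers with Clps and Rnase1 RNA. For the interaction 2367 became 8068 with totals, 3763 with DESeq2, 7829 with limma and 419 without those livers. With mouse as a replicate block 1616 were called, and Amy2a2, Amy2a3, Amy2a4 (adjusted p = 0.0873) and Amy2b (0.0608) were lost; it changed no member's call. Without the 3 livers, those copies were lost too (0.0515 and 0.0874) and the adjusted p of Amy2a5 was 0.0496, with the lone control liver at 0 counts for it, so no call is read from it. The A3B minus control difference in the share of the 9 genes was -10.5 points of percent, -18.9 by counts, -16.2 with all amylase copies and -10.7 to -10.3 without a sample. Ratio pairs apart numbered 30, 29 by estimated counts and 30 to 32 on leaving out an A3B sample. The share over all pairs of genes was not computed for these alternatives. With 1 control left, that sample is assumed to vary like the A3B group. With 2 controls, members near 0 in liver allow no bound on their change. The causes of these shifts were not tested.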
